A study of Mus musculus with 4 samples.

Results

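The 10 genes described here encode proteins of the loose matrix that surrounds mesenchymal cells: the hyaluronan synthase Has2, the hyaluronan-binding proteins Hapln1 and Vcan, the collagen-associated proteins Lum, Postn and Ccdc80, and the adhesive and matricellular glycoproteins Fn1, Fbln1, Tnc and Thbs1. They were chosen by gene symbol and stand among 19938 genes with a probe set of their own on the array, each of the 10 with a single probe set. Hapln1, Ccdc80, Has2, Lum and Postn were picked because their signals differed in these same arrays, so their differences are a description and not independent evidence. Vcan, Fn1, Tnc, Fbln1 and Thbs1 complete the set. They too were chosen with earlier results of these arrays known, so they are not an independent control for the picked genes.

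The data come from mouse ES cells of the D3 line and from embryoid bodies (EBs), floating clusters of ES cells that start to differentiate. The 4 cultures were day 7 EBs treated with bexarotene, a synthetic agonist of the retinoid X receptors, at 50 nM; day 7 EBs treated with retinoic acid (RA), the natural ligand of the retinoic acid receptors; untreated day 7 EBs; and undifferentiated ES cells. The RA dose is 5 µM in the sample labels and 10 nM in the published methods, so by either source the ligands were not given at 1 dose, and their values are set side by side. EBs spent 2 days in hanging drops and another 5 days in suspension. Each condition has 1 array, so nothing measures the spread between cultures, no test was possible, and "higher" and "lower" below describe a pair of arrays. A gene was counted as past the threshold at a 1.5-fold difference, 0.58 on the log2 scale. An EB holds many cell types, and on these arrays fewer cells of a type and less RNA per cell cannot be told apart.

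Hyaluronan is a long, unsulfated sugar polymer that is extruded through the plasma membrane by the Has enzymes and binds large amounts of water. Versican, the product of Vcan, binds it through its end domain, and the link protein encoded by Hapln1 holds the complex together. This swollen matrix is laid down where cells leave an epithelium or migrate, as in the endocardial cushions of the embryonic heart, which mouse embryos without Has2 or Vcan lack. Fibronectin, tenascin-C and periostin then tie cells and collagen to it, and lumican coats collagen fibrils.

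Day 7 EBs carried more of most of these transcripts than ES cells. In untreated EBs 8 of the 10 genes were past 1.5-fold higher than in ES cells, where 11.0% of all genes were, and 0 were lower, where 8.52% were (19.5% of all genes in either direction). The median log2 difference of the 10 genes was 1.63, and that of all genes was -0.04. Of the 5 genes picked for their differences 4 were higher, with a median of 2.15. Of the 5 not picked 4 were higher, with a median of 1.34. In bexarotene-treated EBs 7 genes were higher than in ES cells (10.2% of all genes) and 0 lower (9.69%, or 19.8% in either direction). In RA-treated EBs 5 were higher (10.5% of all genes) and 1, Fn1, was lower (9.19%, or 19.7% in either direction). The log2 difference of Fn1, -0.588, was barely past the threshold of 0.585.

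**Figure D1:**
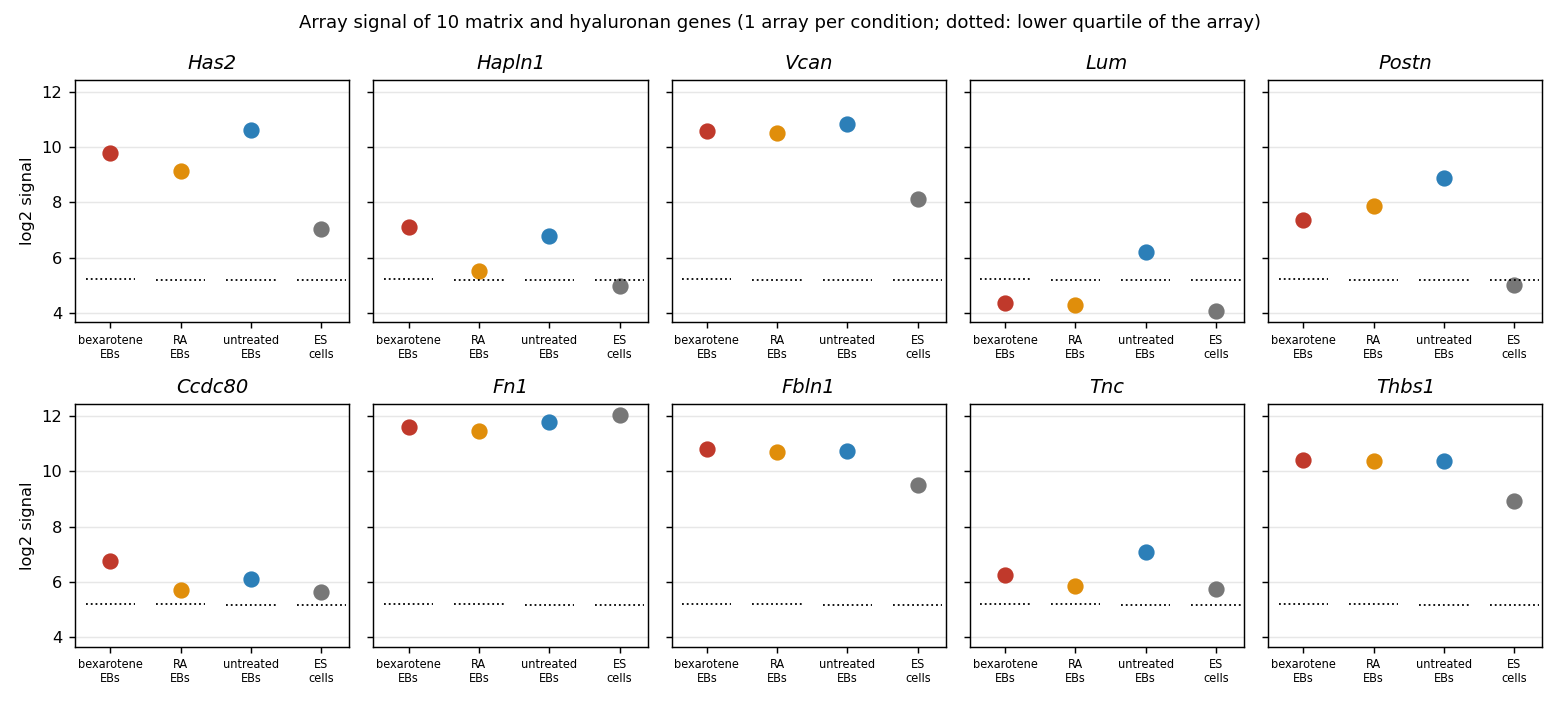
Log2 array signal (y axis) of the 10 genes in bexarotene-treated, RA-treated and untreated EBs and in ES cells, with 1 point per array and no replicates; dotted lines mark the lower quartile of each array. Has2 stood at 10.61 in untreated EBs and 7.03 in ES cells, whereas Fn1 was highest in ES cells, at 12.04, and Lum lay below the lower quartile on every array but that of untreated EBs.

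With ligand the genes split. Against untreated EBs, RA-treated EBs had 5 of the 10 genes past 1.5-fold lower, namely Has2, Hapln1, Lum, Postn and Tnc (2.22% of all genes were lower), and 0 higher (2.07% of all genes, with 4.29% in either direction). Bexarotene-treated EBs had 4 genes lower, Has2, Lum, Postn and Tnc (2.15% of all genes), and 1 gene higher, Ccdc80 (1.48% of all genes, with 3.63% in either direction). The median log2 difference of the 10 genes was -0.20 with bexarotene and -0.71 with RA, while the median of all genes was -0.01 and 0.00. The medians of the 10 include the genes picked for their differences. For the 5 picked genes they were -0.83 with bexarotene and -1.30 with RA. For the 5 genes not picked they were -0.18 and -0.32. Among the 5 genes that were not picked for their differences, Tnc alone was past the threshold, and it was lower with either ligand. Both comparisons use the 1 array of untreated EBs. Between the bexarotene and RA arrays, Hapln1, Ccdc80 and Has2 were past 1.5-fold higher with bexarotene (0.196% of all genes) and 0 genes were lower (0.296% of all genes, with 0.492% in either direction), and 0 of the 5 genes not picked for their differences were past the threshold.

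**Figure D2:**
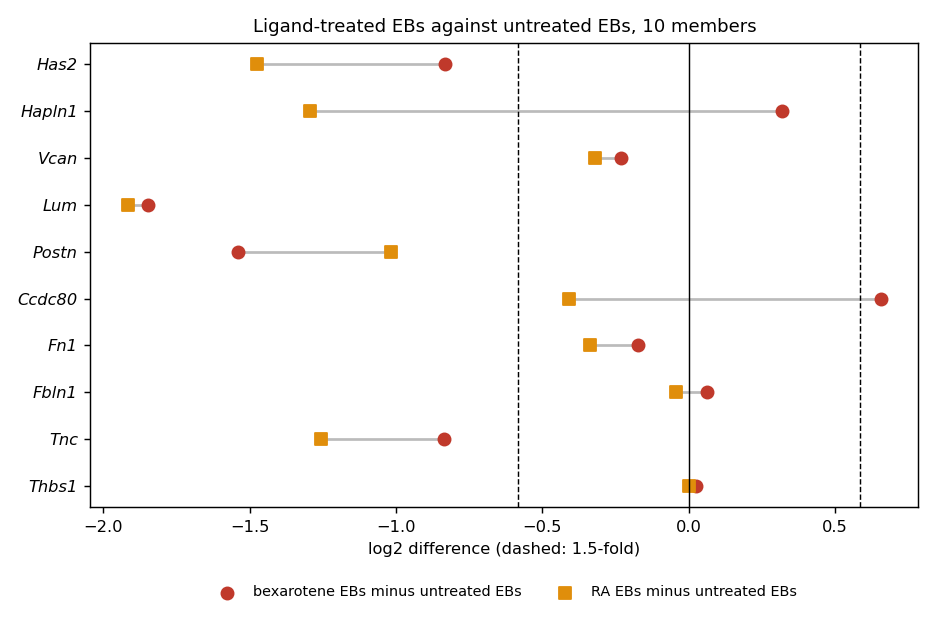
Log2 difference (x axis) of bexarotene-treated EBs (circles) and of RA-treated EBs (squares) from untreated EBs for the 10 genes, 1 array per condition; dashed lines mark 1.5-fold. Lum lies far to the left with either ligand (-1.85 with bexarotene and -1.91 with RA), and the symbols of Hapln1 (0.32 and -1.30) and Ccdc80 (0.66 and -0.41) stand on opposite sides of 0, as do those of Fbln1 at 0.06 and -0.04.

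The threshold left a wide gap with RA and a narrower one with bexarotene. Against untreated EBs, the nearest gene past it was Postn with RA, at -1.02, and Ccdc80 with bexarotene, at 0.66. The nearest gene short of it was Ccdc80 with RA, at -0.41, and Hapln1 with bexarotene, at 0.32. Between the ligands, Has2 lay just past the threshold, at 0.64, and Postn just short of it, at -0.52.

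Has2 encodes the main hyaluronan synthase of the embryo. Its log2 signal (probe set 10428707) was 9.78 in bexarotene-treated EBs, 9.14 in RA-treated EBs, 10.61 in untreated EBs and 7.03 in ES cells. All EB arrays were far above ES cells, by 6.69-fold with bexarotene, 4.29-fold with RA and 11.9-fold without ligand, and the last of these was the 28th largest of 19938 genes. Relative to untreated EBs, Has2 was lower with bexarotene (1.78-fold) and with RA (2.78-fold), and bexarotene-treated EBs were 1.56-fold above RA-treated EBs. The other hyaluronan synthase genes showed no such course, but their signals were weak. Has1 had log2 signals of 5.48 with bexarotene, 5.27 with RA, 5.31 in untreated EBs and 5.79 in ES cells. Has3 had 5.23, 5.41, 5.24 and 5.55 in the same order. Neither was past 1.5-fold in any comparison among the EB arrays. Both lay close to the lower quartiles of those arrays (5.19 to 5.22), where a difference could go unseen.

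Hapln1 had the largest difference of the 10 genes between the ligands. The link protein it encodes clamps versican and related proteoglycans onto hyaluronan. Its log2 signal (probe set 10406519) was 7.12 with bexarotene, 5.51 with RA, 6.80 in untreated EBs and 4.97 in ES cells. The bexarotene and untreated signals lay somewhat above their array medians of 6.68, and the RA signal was low, close to its lower quartile of 5.20. The ES cell array lay below its lower quartile of 5.19. Hapln1 was 3.06-fold higher with bexarotene than with RA, rank 2 of 19938 genes, and 2.45-fold lower with RA than in untreated EBs. With bexarotene it was 1.25-fold above untreated EBs, short of the threshold. Against ES cells it was 4.44-fold higher with bexarotene and 3.56-fold higher in untreated EBs, and 1.45-fold with RA. The paralogs Hapln2, Hapln3 and Hapln4 had log2 differences of -0.14, 0.25 and -0.07 between bexarotene and RA.

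Vcan, the gene of versican, had more signal in all EBs than in ES cells and varied little among EBs. The signal on the log2 scale (probe set 10410931) was 10.59 with bexarotene, 10.50 with RA, 10.83 in untreated EBs and 8.13 in ES cells. It was 6.47-fold higher in untreated EBs than in ES cells, and lower with bexarotene (1.17-fold) and with RA (1.25-fold) than in untreated EBs, short of the threshold. Hapln1 and Vcan are next to each other on chromosome 13 in the RefSeq annotation of GRCm38.p6, with no other protein-coding gene between them. Edil3, which encodes an integrin-binding matrix protein and lies on the other side of Hapln1, had log2 signals of 6.46 with bexarotene, 6.34 with RA, 6.41 in untreated EBs and 4.68 in ES cells. All 3 genes were past 1.5-fold higher in untreated EBs than in ES cells, and Hapln1 alone among them was past 1.5-fold between the ligands.

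Lum encodes lumican, a small leucine-rich proteoglycan that spaces collagen fibrils. Its log2 signal (probe set 10365983) was 4.37 with bexarotene, 4.31 with RA, 6.22 in untreated EBs and 4.07 in ES cells. Untreated EBs stood apart and the other 3 arrays lay together, all 3 below the lower quartile of their array. Lum was lower with bexarotene (3.60-fold) and with RA (3.77-fold) than in untreated EBs. Untreated EBs were 4.45-fold above ES cells. With signals under the lower quartile raised to it, the log2 differences from untreated EBs were -0.996 and -1.02 with bexarotene and RA, in place of -1.85 and -1.91, and that of untreated EBs from ES cells was 1.03 in place of 2.15. Dcn, Kera and Epyc, which lie near Lum on chromosome 10, encode proteoglycans of the same family. Dcn had log2 signals of 6.75 with bexarotene, 6.38 with RA, 7.06 in untreated EBs and 5.35 in ES cells, and was past 1.5-fold lower with RA only. Kera and Epyc lay below the lower quartile on all 4 arrays.

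Postn, which encodes periostin, a collagen-binding protein of fibroblasts and heart valves, had the largest difference of the 10 genes between untreated EBs and ES cells. On the log2 scale its signal (probe set 10492021) was 7.35 with bexarotene, 7.87 with RA, 8.89 in untreated EBs and 5.01 in ES cells. Untreated EBs were 14.7-fold above ES cells, a log2 difference of 3.88, where the ES cell signal lay below the lower quartile of its array. With that signal raised to the lower quartile the difference was 3.70. Postn was lower with bexarotene (2.91-fold) and with RA (2.02-fold) than in untreated EBs, and it was the one gene of the 10 with a lower signal with bexarotene than with RA (1.44-fold, short of the threshold).

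Ccdc80 encodes a secreted matrix protein of fat and connective tissue. Probe set 10435948 had a log2 signal of 6.78 with bexarotene, 5.71 with RA, 6.12 in untreated EBs and 5.63 in ES cells. The bexarotene array stood apart, 1.58-fold above untreated EBs, 2.09-fold above RA-treated EBs (rank 4 of 19938) and 2.23-fold above ES cells. RA-treated and untreated EBs were not past 1.5-fold from ES cells or from each other.

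**Figure D3:**
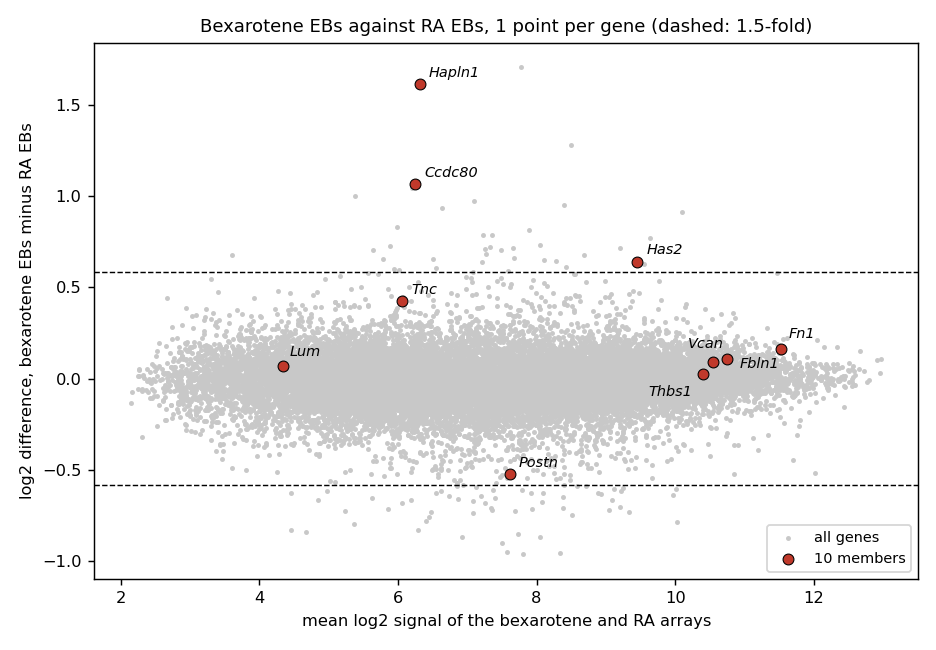
Log2 difference of bexarotene-treated EBs minus RA-treated EBs (y axis) against the mean log2 signal of these arrays (x axis), 1 point per gene, with the 10 genes in red; dashed lines mark 1.5-fold. Hapln1 (1.61), Ccdc80 (1.07) and Has2 (0.64) lie above the upper line, Postn (-0.52) just inside the lower one, and Vcan, Fn1, Fbln1, Thbs1 and Lum within the mass of genes.

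Tnc encodes tenascin-C, a large glycoprotein of embryonic mesenchyme and of migrating neural cells. Probe set 10513739 had a log2 signal of 6.27 with bexarotene, 5.85 with RA, 7.10 in untreated EBs and 5.77 in ES cells. It was lower with bexarotene (1.78-fold) and with RA (2.39-fold) than in untreated EBs, which were 2.53-fold above ES cells. The RA array came within 1.06-fold of the ES cell array, and the bexarotene array was 1.42-fold above it.

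The remaining glycoprotein genes hardly differed among the EB arrays. Fn1, the gene of fibronectin, to which integrins attach cells, had log2 signals (probe set 10355403) of 11.61 with bexarotene, 11.45 with RA, 11.79 in untreated EBs and 12.04 in ES cells, so that ES cells were highest and RA-treated EBs lower by a log2 difference of -0.59. Fbln1, which encodes fibulin-1, a partner of fibronectin and versican, had log2 signals (probe set 10425945) of 10.80 with bexarotene, 10.70 with RA, 10.74 in untreated EBs and 9.49 in ES cells. Thbs1, the gene of thrombospondin-1, an activator of TGF-beta, had log2 signals (probe set 10474700) of 10.41 with bexarotene, 10.38 with RA, 10.38 in untreated EBs and 8.95 in ES cells. Fbln1 and Thbs1 were 2.37-fold and 2.70-fold higher in untreated EBs than in ES cells, and for both genes every EB array was past 1.5-fold above ES cells while the EB arrays lay within 0.11 log2 units of each other.

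Upstream sequence is shown for members with different courses. Hapln1 was higher with bexarotene than with RA, Tnc and Postn were lower with either ligand, and Fbln1 was level among EBs. RefSeq promoter windows, 250 bases before and 50 bases after a start on GRCm38.p6, were matched by symbol for 5 of the 10 genes (8 windows): Hapln1, Vcan, Postn, Tnc and Fbln1. The first 4 lines give window bases that precede the annotated gene, for Hapln1 on chr13:89540386-89540528 (plus strand), for Tnc on chr4:64047016-64047265 (minus strand), for Postn on chr3:54359017-54359266 (plus strand) and for Fbln1 on chr15:85205699-85205948 (plus strand). The last line gives 30 bases around the TATA box of the downstream Postn start, on chr3:54361067-54361096 (plus strand). Capitals mark a TATA box (TATAAA), a GC box (GGGCGG), a nuclear receptor half-site (AGGTCA), an AP-1 site (TGANTCA) or a TEAD site (GGAATG), on either strand, and the Hapln1 and Fbln1 lines hold none of them.
Hapln1: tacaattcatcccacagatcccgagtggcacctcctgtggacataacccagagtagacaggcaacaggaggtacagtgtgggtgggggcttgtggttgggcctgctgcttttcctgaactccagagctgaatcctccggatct
Tnc: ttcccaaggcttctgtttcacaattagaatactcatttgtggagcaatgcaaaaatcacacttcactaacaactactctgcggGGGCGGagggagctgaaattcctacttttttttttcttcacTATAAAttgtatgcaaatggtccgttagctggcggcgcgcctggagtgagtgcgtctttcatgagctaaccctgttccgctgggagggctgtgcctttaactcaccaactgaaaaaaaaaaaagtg
Postn, upstream: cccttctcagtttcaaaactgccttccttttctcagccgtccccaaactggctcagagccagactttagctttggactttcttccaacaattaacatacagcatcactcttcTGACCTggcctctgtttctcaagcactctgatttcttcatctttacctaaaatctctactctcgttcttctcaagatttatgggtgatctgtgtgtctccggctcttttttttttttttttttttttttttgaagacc
Fbln1: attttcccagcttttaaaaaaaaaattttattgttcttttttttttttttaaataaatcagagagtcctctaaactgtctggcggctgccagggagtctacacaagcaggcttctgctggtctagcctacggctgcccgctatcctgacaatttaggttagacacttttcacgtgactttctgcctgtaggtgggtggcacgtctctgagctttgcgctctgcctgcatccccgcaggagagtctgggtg
Postn, TATA box: acagcccagagctaTATAAActcagctctc

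A TATA box was found in windows of Postn, where it began at -26 from the downstream start, and of Tnc, at -126 from the upstream start, and 13.6% of all 32851 RefSeq windows hold these letters. The half-site to which RA and retinoid X receptors bind in pairs was found in the upstream window of Postn only, on the opposite strand (TGACCT), beginning at -138 from the start, and in 16.3% of all windows. GC boxes were found in windows of Vcan, Tnc and Fbln1 (35.7% of all windows), for Fbln1 within bases not shown, and E-boxes (CANNTG, not capitalised) in the same 3 genes (72.3% of all windows). AP-1 and TEAD letters, present in 7.81% and 14.7% of all windows, were not found in the windows of these 5 genes. The capitals do not overlap. The Hapln1 window held none of the 6 motifs.

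The genes with the most similar course over the 4 arrays were sought for the 6 members that spanned at least 1 log2 unit among the EB arrays. Likeness was the Euclidean distance between signals centred on each gene's mean, in log2 units, over 12128 genes. These were the genes whose highest signal reached the largest array median, 6.69, without gene models that have Gm, LOC or Rik names. Lum, with a highest signal of 6.22, lay below that bound, so genes at its own level were not searched. Closest to Has2 were Bmp2 (0.19), which encodes a bone morphogenetic protein, Nrp1 (0.44), a receptor of semaphorins and VEGF, and Acta2 (0.44), smooth muscle actin. Closest to Hapln1 were Foxf1 (0.34), a forkhead gene of lateral mesoderm, Pax9 (0.68), a gene of the sclerotome, and Snai2 (0.75), a regulator of epithelial-mesenchymal transition. Closest to Ccdc80 were Prrx2 (0.28), a homeobox gene of mesenchyme, Tgfbi (0.35), a matrix protein induced by TGF-beta, and Tgfb1i1 (0.40), a focal adhesion protein. Tnc was nearest to Alx1 (0.05), a homeobox gene of head mesenchyme, Gfra2 (0.15), a receptor subunit for neurturin, and Cyp2j6 (0.15). Lum was nearest to Fam107a (0.18), Nkx2-9 (0.20), a ventral neural homeobox gene, and AW551984 (0.22), and Postn to the guidance gene Slit2 (0.41), the Wnt target Lgr5 (0.51) and the kinase gene Camk1g (0.51). With 4 arrays, many genes can lie close to any one profile.

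Of 24 other genes of hyaluronan synthesis, binding, uptake and breakdown, 0 were past 1.5-fold with bexarotene against untreated EBs (3.63% of all genes), 1 was higher and 1 lower with RA (4.29% of all genes in either direction), and 0 were past it between the ligands (0.492% of all genes). Counts this small over 24 genes do not set the list apart from all genes. The gene that was higher with RA was Cemip2, which encodes a cell-surface protein linked to hyaluronan breakdown (1.70-fold). The gene that was lower was Cd44, the main hyaluronan receptor, with log2 signals of 7.17 with bexarotene, 6.96 with RA, 7.72 in untreated EBs and 5.91 in ES cells. Between untreated EBs and ES cells 4 of these genes were higher (11.0% of all genes) and 1 was lower (8.52% of all genes). The higher ones were led by Cemip, whose product depolymerises hyaluronan (3.81-fold), and Cd44 (a log2 difference of 1.81). The median differences of the 24 genes were -0.03 with bexarotene and -0.03 with RA from untreated EBs, close to the medians of all genes given above.

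Among 15 other proteoglycans of the versican and lumican families, 0 were past 1.5-fold with bexarotene, and with RA 1 was higher and 1, Dcn, was lower. Of 28 other adhesive and matricellular glycoproteins, 2 were higher and 2 lower with bexarotene, and 1 was higher and 3 were lower with RA. Of all genes, 1.48% were higher and 2.15% lower with bexarotene, and 2.07% were higher and 2.22% lower with RA. Sparcl1, an anti-adhesive relative of SPARC that is strong in astrocytes and neural tissue, was 4.04-fold higher with bexarotene and 5.32-fold higher with RA than in untreated EBs. Spon1, a floor plate protein that guides axons, had log2 differences of -1.81 with bexarotene and -1.58 with RA from untreated EBs, and was 10.6-fold higher in untreated EBs than in ES cells. Tgfbi was 1.60-fold higher with bexarotene than with RA.

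Of 21 other fibulin, elastic fibre and crosslinking genes, 1 was higher and 4 were lower with bexarotene, and 1 was higher and 5 were lower with RA. Of all genes, 1.48% were higher and 2.15% lower with bexarotene, and 2.07% were higher and 2.22% lower with RA. Between the ligands 0 of the 21 genes were past 1.5-fold (0.492% of all genes). Fbln2, a fibulin of the endocardial cushions, was lower with bexarotene (2.12-fold) and with RA (1.92-fold), in contrast to its relative Fbln1. Ltbp1, which tethers latent TGF-beta to the matrix, was lower with bexarotene (1.91-fold) and with RA (1.99-fold). Hmcn1, a giant relative of the fibulins, was 1.63-fold and 1.85-fold lower in that order, and Emilin2, an elastic fibre glycoprotein, was 1.76-fold and 1.92-fold higher. Of 15 matrix proteases and inhibitors, 0 were past 1.5-fold with bexarotene, and with RA the gelatinase gene Mmp2 was 1.72-fold lower.

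**Figure D4:**
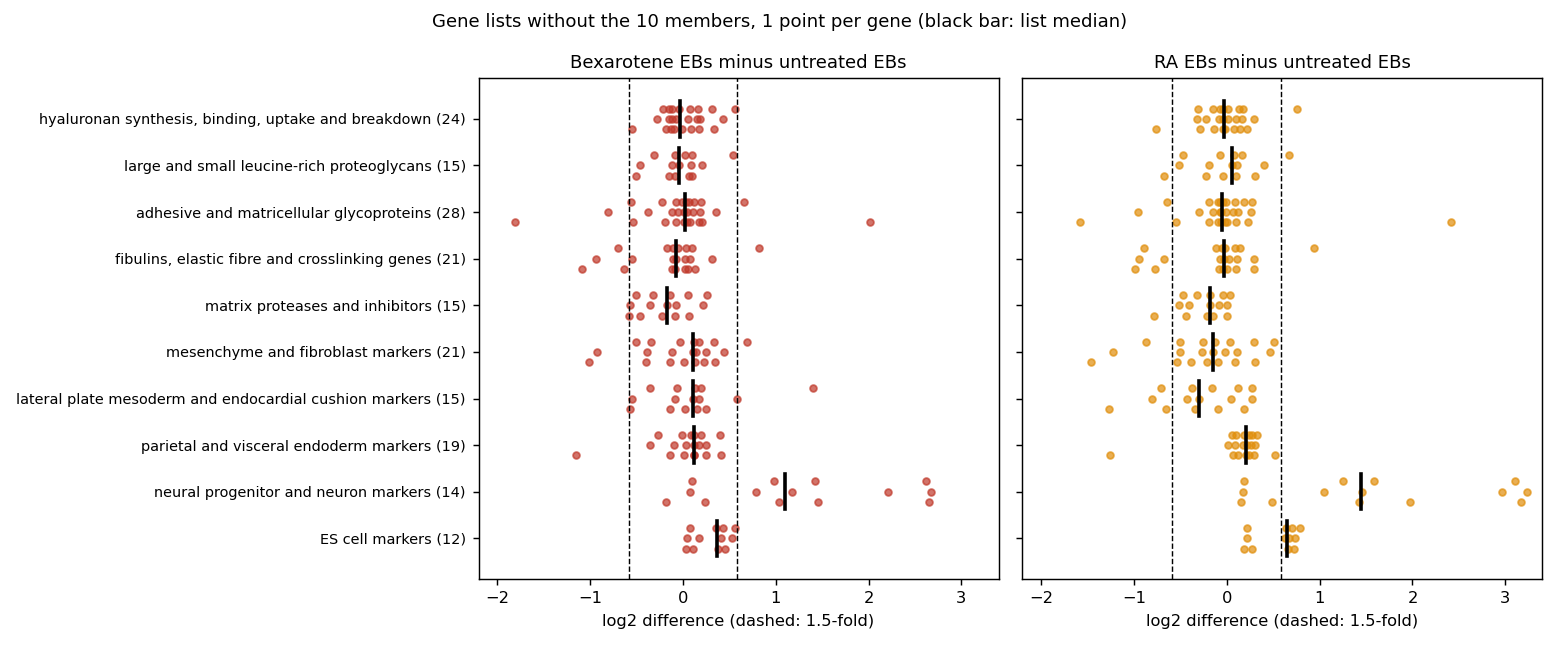
Log2 difference from untreated EBs (x axis) of the genes of 10 lists without the 10 members, with bexarotene on the left and RA on the right; each point is 1 gene, the median of a list is a black bar and 1.5-fold a dashed line. Points of the matrix lists lie mostly between the dashed lines, with Sparcl1 and Spon1 as the far points of the glycoproteins, while neural markers lie to the right (median 1.10 with bexarotene and 1.44 with RA).

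The label of mesenchymal genes was set against markers of mesenchyme and fibroblasts. Of 21 such markers, 11 were past 1.5-fold higher in untreated EBs relative to ES cells (11.0% of all genes) and 1 was lower (8.52% of all genes). The higher ones included Zeb2 (12.6-fold), Acta2 (8.85-fold), Prrx1 (5.17-fold) and Pdgfra (2.85-fold). The fibroblast protease gene Fap lay below the lower quartile on all 4 arrays. With bexarotene 1 marker was higher (1.48% of all genes) and 2 were lower (2.15%) than in untreated EBs. With RA 0 were higher (2.07% of all genes) and 3 lower (2.22%). Prrx1 and Acta2, which were lower with either ligand, stood at log2 differences of -0.93 and -1.01 with bexarotene and of -1.23 and -1.46 with RA. Prrx2 and Snai2 were 1.93-fold and 1.64-fold higher with bexarotene than with RA. They were the 2 of 21 markers past 1.5-fold in that comparison, with 0 past it the other way. Of all genes, 0.196% were higher with bexarotene and 0.296% lower. Among the 21 markers, 15 lay above 0 and 6 below. Osr1 (3.26-fold), Foxf1 (2.43-fold) and Bmp4 (1.89-fold) were also higher with bexarotene than with RA. They were the 3 past the threshold in that comparison among 15 markers of lateral plate mesoderm and endocardial cushion. Against untreated EBs, 1 of the 15, Osr1, was higher with bexarotene (1.48% of all genes) and 0 were lower (2.15%). With RA 0 were higher (2.07%) and 4 lower (2.22%). Foxf1, 1 of these 4, had log2 differences from untreated EBs of -1.26 with RA and 0.02 with bexarotene. Bmp4 had its highest signal in ES cells, at 11.31, so on these arrays it was not a marker of mesoderm alone. Fn1, with its highest signal in ES cells, did not follow the label.

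Markers of other cell types differed between the same arrays, and their part in the matrix differences was not tested. Against untreated EBs, 1.48% of all genes were higher and 2.15% lower with bexarotene, and 2.07% were higher and 2.22% lower with RA. Of 14 neural progenitor and neuron markers, 10 were past 1.5-fold higher with bexarotene and 10 with RA than in untreated EBs, and 0 were lower. Their mean log2 signal was 9.15 with bexarotene, 9.50 with RA, 7.92 in untreated EBs and 7.35 in ES cells. Of 12 ES cell markers, 0 were past 1.5-fold with bexarotene and 8 were higher with RA than in untreated EBs, and their mean log2 signal was 8.88 with bexarotene, 9.12 with RA, 8.58 in untreated EBs and 11.05 in ES cells. Of 19 markers of parietal and visceral endoderm, 1 was lower with bexarotene and 1 with RA, Foxa2 in both, and their mean log2 signal was 9.32 with bexarotene, 9.44 with RA, 9.31 in untreated EBs and 7.94 in ES cells. No marker of these 3 lists lay below the lower quartile on all 4 arrays. The lists are not separate readouts. Sox2 is in both the neural and the ES cell list, and Gata4, Gata6 and Tbx3 are also in the lateral plate list. The neural markers Stmn2 and Sox2 had their highest signal in ES cells (11.68 and 11.43).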

How the data were processed

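RNA of 4 cultures was hybridised to Affymetrix mouse gene arrays, 1 array per condition. The authors deposited log2 signals of probe sets after background correction, normalization and summarization, by RMA in the published methods and by GCRMA in Affymetrix Expression Console in the submitters' processing notes. Of 35556 probe sets on each array (median signal 6.66 to 6.69), 21789 carry a single symbol in the platform annotation, 1621 carry several and 12146 carry none. Only the first kind was used, with the brightest probe set on average kept for each gene, which left 19938 genes.

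Log2 signals were subtracted between arrays and differences counted at 1.5-fold, the threshold of the published methods. Without replicates no test, error or p-value can be given, and the number of arrays limits the precision. The members and the 10 gene lists were chosen with earlier results of these data known. Named genes were drawn from the members and the gene lists. Each list and comparison gave up to 4 genes, in order of size, past 1.5-fold and at or above the array median. Others were the 2 protein-coding neighbours on each side and the 3 genes of most similar course. Not all genes that met these rules are named, and genes shared between lists are named as well. Of 36 neighbours, 33 were measured. Past 1.5-fold were 1 with bexarotene (Trpc4, beside Postn, at -0.60), 1 with RA (Dcn), 0 between the ligands and 7 in untreated EBs against ES cells. The shares of all genes were 3.63%, 4.29%, 0.492% and 19.5% in that order. Has1, Has3, the Hapln paralogs and genes named for low signal were added after their values were seen. Neighbours and promoter windows are those of RefSeq on GRCm38.p6. Alternatives were a 2-fold threshold, quantile normalization, loess against the mean array (span 0.3), raising signals under the 25th percentile of an array to it and the mean of a gene's probe sets. Python 3.11.15, pandas 2.3.3 and statsmodels 0.14.6 were used. The code was run on simulated arrays with known differences well past the threshold and an assumed noise. That run checks the code only, and does not measure the error of the differences reported here.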

Additional observations from a re-analysis of the deposited data

Results flagged for a closer look

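Hapln1 and Ccdc80 stood on opposite sides of untreated EBs with the ligands and differed past 1.5-fold between them. For Hapln1 the log2 difference from untreated EBs was 0.32 with bexarotene and -1.30 with RA, which leaves 1.61 between the ligands. For Ccdc80 it was 0.66 with bexarotene and -0.41 with RA, which leaves 1.07 between them. With 1 array per condition the difference was not tested, and both genes had been picked for it.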

How the results depend on the processing

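At a 2-fold threshold the count of members that differed between bexarotene-treated and untreated EBs was 2, both lower, in place of 5. The other counts at 2-fold were 5 with RA against untreated EBs, 2 between the ligands and 8 in untreated EBs against ES cells, within 1.5 times of the counts at 1.5-fold. The counts of bexarotene-treated and of RA-treated EBs against ES cells were not rerun under any alternative. Under quantile normalization, loess, the floor and the mean of probe sets, all 4 counts that were rerun were as reported, and the 40 differences of single members in these comparisons kept their direction and their side of 1.5-fold. Quantile normalization and loess moved them by at most 0.05 and 0.07 log2 units, and the floor by up to 1.12, for Lum in untreated EBs against ES cells. The deposited signals were already normalized, with array medians of 6.66 to 6.69, so normalizing them again could move little. The mean of probe sets changed nothing, since each member has 1 probe set. No paired analysis was possible because each condition has a single array. Signals near or below the lower quartile limit what can be seen of Lum on 3 arrays, and of Hapln1 and Postn in ES cells. The same holds for Hapln1 with RA, where its signal of 5.51 was close to the lower quartile of 5.20. Ccdc80 and Tnc were also weak, below the array medians, with RA (5.71 and 5.85) and in ES cells (5.63 and 5.77). Ccdc80 was below the median in untreated EBs too (6.12 against 6.68), and only just above it with bexarotene (6.78 against 6.68). Tnc was below the median with bexarotene as well (6.27 against 6.68).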
